A study of Saccharomyces cerevisiae with 6 samples.

Results

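The genes DAN1, DAN4, TIR1, TIR2, TIR3, TIR4, AUS1, and PDR11 of budding yeast were examined in RNA-seq data from cells that lacked the histone methyltransferase Set2. They were chosen by name, and all 8 were found among the 6692 protein-coding units and 18646 transcriptional units of the count table. The cells were of the laboratory strain W303, with 3 Δset2 samples compared with 3 WT samples, and RNA came from a separate colony for each sample. The sample labels give the deletion as set2::His3, whereas the methods of the study give a KanMX cassette, and no other allele is named for either genotype. All cultures were grown in YPDA, a rich glucose medium, to an OD660 of 0.6, and the aeration of the cultures is not given in the sources used here. From each culture 200 ng of rRNA-depleted total RNA was made into a library and sequenced as 76-nt single reads. The counts per library summed to between 5135226 and 22536840 reads in Δset2 and between 10568372 and 15015735 reads in WT. In the deleted gene itself, SET2, 20, 9, and 32 reads were counted in the Δset2 samples, against 435, 298, and 459 in the WT samples.

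Yeast needs molecular oxygen to make sterols and heme, so that cells without oxygen have to take sterols up from the medium, and they also rebuild their wall. The DAN and TIR genes encode serine- and alanine-rich mannoproteins that are anchored in the cell wall, and they replace the major wall mannoproteins of aerobic cells, Cwp1 and Cwp2. AUS1 and PDR11 encode related ATP-binding cassette (ABC) transporters of the plasma membrane that import sterols, and Dan1 also takes part in sterol uptake. In air these genes are repressed through the heme-dependent repressor Rox1, Mot3, and the Tup1-Cyc8 corepressor, and under low sterol they are activated by Upc2, a transcription factor that senses sterols.

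The letters before the coding sequences were examined first, because the motifs through which these regulators act are known. Windows of 600 bases before each start codon were read from the R64 assembly and searched on both strands. The motifs were TCGTATA (the core of the sterol response element, bound by Upc2 and Ecm22), TCGTTNAG (the anaerobic response element AR1), ATTGTTC (part of the Rox1 consensus), and TCCGNGGA (the site of Pdr1 and Pdr3, which control drug pumps). The first 2 both start with TCGT and differ after it. The first motif was present in 4 of the 6 wall gene windows and 0 of the 2 importer windows, and in 8.58% of the 6005 windows of all protein-coding genes. It was also in 3 of 8 windows of the aerobic and related wall genes described below. AR1 was present in 3 of 6 wall gene windows and 1 of 2 importer windows, and in 5.95% of all windows, as well as in 3 of the 8 windows of the aerobic and related wall genes and 3 of 9 windows of the regulators. The Rox1 letters were present in 4 of 6 wall gene windows and 0 of 2 importer windows, and in 13.9% of all windows, as well as in 6 of 10 windows of other hypoxic genes. TCCGNGGA was in 0 of the 8 windows and in 3.53% of all windows, and in 4 of 6 windows of other PDR-type transporters. A match is a description of the letters and not a bound site, and the AUS1 window held no match to any of the 4 motifs. The DAN4 and TIR2 windows lie wholly inside the annotated transcriptional units of these genes, which start farther upstream.

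The sites below are shown because DAN1 and DAN4, which lie side by side, carry both Upc2-type motifs in the same order, and because TIR4 and PDR11 carry AR1 alone among the 4 motifs. Each is a 30-base stretch, 5′ to 3′ on the strand of the gene, with the motif or its reverse complement in capitals. Coordinates are those of the R64 assembly, and DAN1, DAN4, and PDR11 lie on the minus strand and TIR1 and TIR4 on the plus strand.
DAN1, TCGTATA reversed, 203 bases before the start codon, chrX:709892-709921: atgccaagatcTATACGAggcctctaacaa
DAN1, AR1, 180 bases before the start codon, chrX:709869-709898: ctaacaaaacaTCGTTCAGgaacagagaat
DAN4, TCGTATA reversed, 222 bases before the start codon, chrX:715944-715973: atgtcaaaaatTATACGAgatctgtttaag
DAN4, AR1, 196 bases before the start codon, chrX:715918-715947: taagatctccaTCGTTCAGgaactgtaaaa
TIR1, TCGTATA reversed, 527 bases before the start codon, chrV:174710-174739: tcaattttctcTATACGAcggctataaaag
TIR4, AR1 reversed, 223 bases before the start codon, chrXV:344101-344130: gaacagggttcCTAAACGAtgcatttctaa
PDR11, AR1, 430 bases before the start codon, chrIX:332854-332883: tccgtccgtttTCGTTTAGgcacttcgcac

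The AR1 letters of DAN1 and DAN4 lay inside a run of 14 bases that both windows share, catcgttcaggaac. It was the longest run shared by any pair of the 8 windows, and the next longest was 13 bases, between TIR2 and TIR4. A second AR1 match in DAN1 lay 412 bases before its start codon. TIR3 held a TCGTATA match 421 bases before its start codon, in a run of 10 bases shared with DAN1, and TIR2 held only a Rox1 match, 103 bases before its start codon.

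How well each gene could be measured was set in part by the annotation, since a read that touched more than one unit on either strand was discarded and a read with more than one genomic position was removed. For each unit, all placements of a 76-nt read that touch it were listed, and those that touch no other unit and whose sequence occurs once in the R64 genome were called countable. DAN1 (YJR150C, chromosome X, 708811 to 709707) was almost fully measurable, with 920 of 972 placements countable. DAN4 (YJR151C, chromosome X, 712159 to 717583) had 4826 of 5500 countable placements, and its unit reaches far beyond a coding sequence of 3486 nt. TIR4 (YOR009W, chromosome XV, 344335 to 345798) had 1309 of 1539 countable placements and AUS1 (YOR011W, chromosome XV, 349679 to 353986) had 2259 of 4383. AUS1 is overlapped by the noncoding units SUT770 (a stable unannotated transcript) and an XUT (a transcript degraded by Xrn1), and such overlaps were larger in the remaining genes. TIR1 (YER011W, chromosome V, 175210 to 176114) is overlapped by SUT508 and an XUT and had 394 of 980 countable placements. TIR2 (YOR010C, chromosome XV, 346195 to 348094) had 225 of 1975 and TIR3 (YIL011W, chromosome IX, 333660 to 334852) had 96 of 1268. PDR11 (YIL013C, chromosome IX, 328015 to 332442) was overlapped by MNT3, SUT189, and an XUT, and 109 of its 4503 placements, or 2.42%, could be counted. The counts for TIR2, TIR3, and PDR11 therefore come from short stretches of each unit. The TIR2 unit also reaches far upstream of a coding sequence of 756 nt. Its counts do not tell which part of the unit the reads came from. Sequence differences between W303 and the reference strain were not examined.

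**Figure D1:**
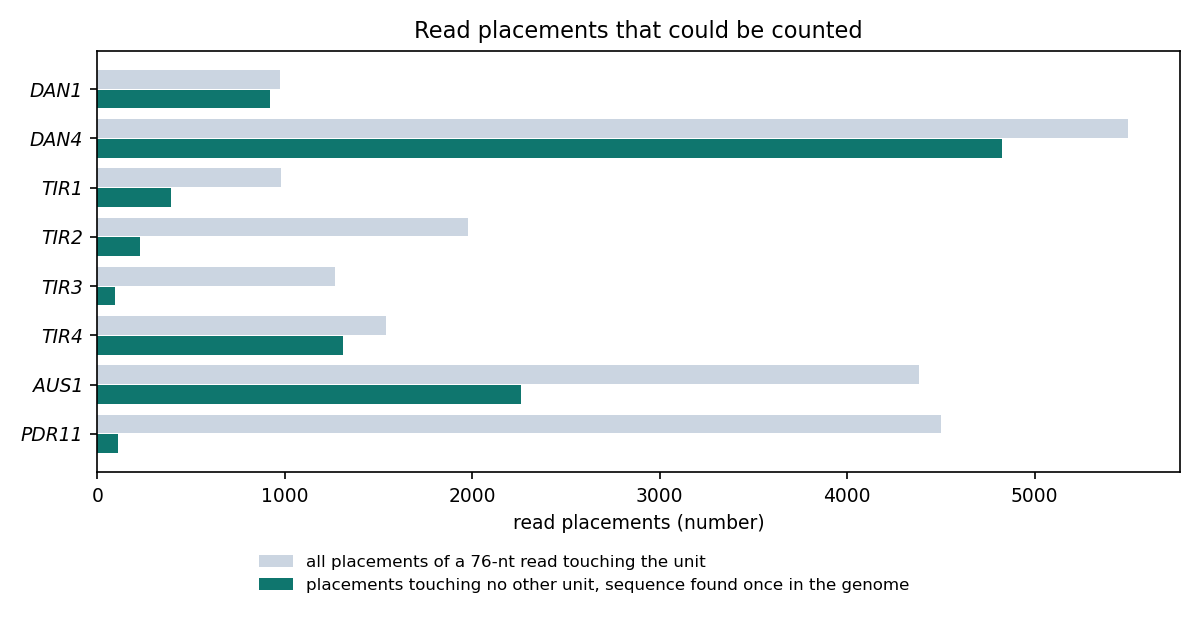
Number of placements of a 76-nt read that touch each unit (grey) and number that touch no other unit and have a sequence found once in the genome (green), from the annotation and the R64 genome. DAN1 keeps 920 of 972 placements, whereas PDR11 keeps 109 of 4503 and TIR3 keeps 96 of 1268.

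Repeats within 3 of the coding sequences were a further limit. They took 569 placements from DAN4 and 178 from TIR4, more than overlapping units did, whereas in TIR1 the repeats lay where other units overlap and took none further. The 76-base stretch of each of these genes that occurs most often in the genome is shown because reads from it were lost, 5′ to 3′ on the coding strand. All occurrences lie within the same unit, 5 in DAN4, 3 in TIR4, and 2 in TIR1.
DAN4, chrX:714219-714294: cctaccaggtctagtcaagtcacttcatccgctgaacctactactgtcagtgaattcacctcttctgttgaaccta
TIR4, chrXV:344830-344905: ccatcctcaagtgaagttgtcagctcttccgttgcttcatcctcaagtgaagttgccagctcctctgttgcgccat
TIR1, chrV:175675-175750: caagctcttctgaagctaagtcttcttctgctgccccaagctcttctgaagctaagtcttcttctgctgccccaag

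Of placements inside the unit, 10.6% in DAN4, 12.8% in TIR4, and 7.47% in TIR1 had a sequence found more than once, and none did in the other 5 genes. No 76-base stretch was shared between any pair of the 8 genes, so that, by the reference sequence, a read of one gene would not be taken for another. The closest pair of coding sequences was TIR1 and TIR2, with 78.5% identical bases over aligned positions, followed by AUS1 and PDR11 with 70.1%. Pairs of a wall gene and a transporter gene, which are unrelated, had between 57.9% and 63.9% when aligned in the same way, and some pairs of wall genes, such as DAN4 and TIR1 with 60.5%, lay within that range.

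Expression in Δset2 and WT cells was compared with edgeR's quasi-likelihood test over 5317 units with sufficient reads. A unit was called when its adjusted P value was below 0.05 and its fold change was above 1.5 in either direction, the thresholds of the study. Of the 8 genes, 6 had enough reads to be tested, and 0 passed both thresholds, compared with 3.57% of all tested units. DESeq2 also called 0 of the 8. Without the fold threshold 1 of the 6, AUS1, was higher in Δset2 at an adjusted P value below 0.05, compared with 4.48% of tested units that were higher at that level. At an unadjusted P value below 0.05 there were 2 of 6, AUS1 and TIR4, both higher in Δset2, compared with 12.8% of tested units. All 6 log2 fold changes were positive, with a median of 0.57, whereas the median of all tested units was 0.00. These medians were not matched for level.

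AUS1, a sterol importer, was measured most precisely. Its reads numbered 390, 246, and 888 in Δset2, against 338, 323, and 424 in WT. In CPM, reads scaled to 1000000 reads of a library whose size is normalized by TMM, these were 40.2, 49.0, and 38.9 in Δset2, against 28.9, 31.8, and 27.9 in WT. The lowest Δset2 sample thus lay above the highest WT sample, as it did for 14.1% of all tested units. The mean was 42.7 ± 5.51 CPM in Δset2 and 29.5 ± 2.01 CPM in WT (SD, n = 3 each). The log2 fold change was 0.52 (standard error 0.12, 95% interval 0.26 to 0.78), a fold change of 1.44, with an adjusted P value of 0.031 (edgeR, Benjamini-Hochberg adjustment). The adjusted P value did not stay below 0.05 with the replicate number as a block (0.10) or when any of the samples other than WT 2 was left out (between 0.061 and 0.13, edgeR). In bulk RNA, a higher level in every cell and a larger share of cells that express the gene cannot be told apart. Reads were counted without regard to strand, so AUS1 mRNA and antisense RNA from its countable stretches cannot be told apart either. The limits of bulk RNA and of strand hold for every other unit as well.

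TIR4, which encodes a wall mannoprotein required for growth without oxygen, lies near AUS1, with TIR2 between them. It had 58, 34, and 143 reads in Δset2, against 41, 50, and 54 reads in WT. These correspond to 5.99, 6.78, and 6.26 CPM in Δset2 and 3.50, 4.92, and 3.55 CPM in WT, without overlap between the genotypes. The log2 fold change of 0.67 (standard error 0.19, 95% interval 0.26 to 1.08) did not pass the threshold, with an adjusted P value of 0.062 in edgeR. Without WT 2, the WT sample in which TIR4 was highest, it passed both thresholds, at a log2 fold change of 0.83 (adjusted P = 0.017, edgeR).

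TIR2, a wall mannoprotein gene induced by cold shock and anaerobiosis, had 23, 4, and 33 reads in Δset2, against 13, 10, and 13 reads in WT. Its levels were 2.37, 0.797, and 1.44 CPM in Δset2 and 1.11, 0.983, and 0.855 CPM in WT, so the lowest value of all was in a Δset2 sample. The log2 fold change was 0.72 with a wide interval, from -0.10 to 1.53 (adjusted P = 0.27, edgeR), and was not detectable as a difference at this depth.

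DAN1, the wall mannoprotein gene linked to sterol uptake, had 43, 12, and 138 reads in Δset2, against 15, 31, and 72 reads in WT. The levels of 4.44, 2.39, and 6.04 CPM in Δset2 and 1.28, 3.05, and 4.74 CPM in WT overlapped. The log2 fold change of 0.61 had an interval from -0.28 to 1.5 (adjusted P = 0.40, edgeR). DAN4, its longer neighbour, had 20.7, 17.3, and 19.6 CPM in Δset2, against 16.5, 20.2, and 15.7 CPM in WT. For DAN4 the samples agreed more closely, and the log2 fold change of 0.16 had an interval from -0.13 to 0.45 (adjusted P = 0.50, edgeR).

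TIR1, like TIR2 a mannoprotein gene induced by cold shock and anaerobiosis, had 248, 48, and 610 reads in Δset2, against 132, 160, and 460 reads in WT. Its levels were 25.6, 9.57, and 26.7 CPM in Δset2 and 11.3, 15.7, and 30.3 CPM in WT, so that the lowest sample was Δset2 2, the highest was WT 3, and the genotypes overlapped. The log2 fold change was 0.17 (interval from -0.67 to 1.0, adjusted P = 0.83, edgeR), and it became negative when Δset2 3 or WT 1 was left out (-0.07 and -0.10).

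TIR3 and PDR11 had too few reads to pass the filter on low counts and were not tested in the edgeR comparison. TIR3 gave 0, 1, and 2 reads in Δset2, against 0, 2, and 0 reads in WT, and a count of 0 allows up to 3 reads. PDR11 had 3, 2, and 5 reads in Δset2, against 2, 2, and 3 reads in WT. Summed over samples these are 10 and 7 reads, a ratio of 1.41 per library size with an exact counting interval from 0.485 to 4.37 that covers counting error only. A difference of the size seen for AUS1 would not be detectable in either gene.

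**Figure D2:**
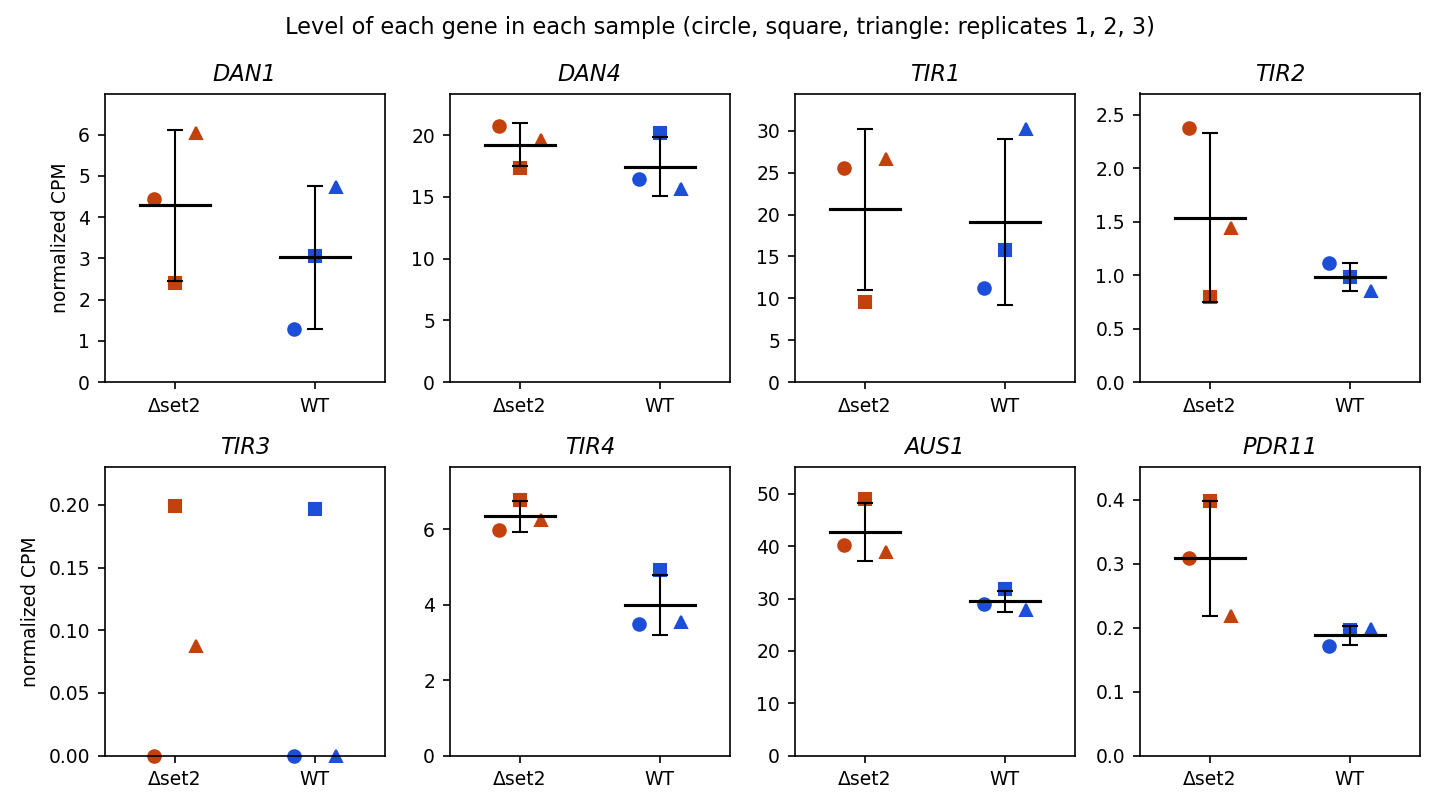
Level of each of the 8 genes in TMM-normalized CPM (vertical axes from 0, a separate scale for each gene) in Δset2 (orange) and WT (blue) samples, with circles, squares, and triangles for replicates 1, 2, and 3. Horizontal bars are means and error bars are SDs (n = 3), not drawn for TIR3. AUS1 (38.9 to 49.0 CPM in Δset2, 27.9 to 31.8 CPM in WT) and TIR4 do not overlap between the genotypes, whereas DAN1, DAN4, TIR1, and TIR2 do. The PDR11 points rest on 2 to 5 reads each.

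Levels were then compared between the genes after scaling to 1000 countable placements, since the measurable length of the genes differed. TIR1 had the highest level, at 52.3 ± 24.3 CPM per 1000 placements in Δset2 and 48.4 ± 25.2 in WT (SD, n = 3 each). AUS1 followed with 18.9 ± 2.44 in Δset2 and 13.1 ± 0.888 in WT, and the highest AUS1 sample (21.7) lay below the lowest TIR1 sample (24.3). TIR2 had 6.84 ± 3.52 CPM per 1000 placements in Δset2 and 4.37 ± 0.566 in WT, below AUS1 in every sample. DAN4 (3.98 ± 0.359 in Δset2 and 3.61 ± 0.496 in WT), DAN1 (4.66 ± 1.99 in Δset2 and 3.28 ± 1.88 in WT), and TIR4 (4.84 ± 0.307 in Δset2 and 3.05 ± 0.613 in WT) had ranges over the 6 samples that overlapped each other and that of TIR2 on the same scale. PDR11, with 2.84 ± 0.825 CPM per 1000 placements in Δset2 and 1.73 ± 0.139 in WT, was lower than its relative AUS1 in every sample but overlapped DAN1, DAN4, TIR2, and TIR4. Without scaling to length, the mean CPM over the 6 samples placed AUS1 above 54.7% of the tested units, TIR1 above 38.3%, DAN4 above 36.7%, TIR4 above 13.9%, DAN1 above 10.0%, and TIR2 above 2.48%.

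The genes differed in how far samples of the same genotype lay apart. TIR1 had a within-genotype SD of 0.76 on the log2(CPM + 0.5) scale, larger than that of 99.7% of tested units, whereas counting error alone would give about 0.12. DAN1 had an SD of 0.70, larger than that of 99.4% of units, and a counting error of about 0.28. The median over all tested units was 0.15. AUS1, DAN4, and TIR4 were much less variable, at 0.14, 0.16, and 0.18. For TIR2 the SD was 0.42 and the value from counting alone was 0.45. The counting values were computed from the reads without the added 0.5 CPM. That addition shrinks the spread of a gene as low as TIR2, so its SD and counting value cannot be ranked. DAN1 and TIR1 were low in the same samples, Δset2 2 and WT 1, and high in Δset2 3 and WT 3. The highest sample exceeded the lowest 2.52-fold in Δset2 and 3.70-fold in WT for DAN1, and for TIR1 it did so 2.79-fold in Δset2 and 2.69-fold in WT. ANB1, a hypoxic translation factor gene repressed by Rox1 and named here after its values were seen, had the same low and high samples. It had 40.6, 31.3, and 45.5 CPM in Δset2, against 26.0, 31.8, and 55.6 CPM in WT, with an SD of 0.44. ANB1 was the only one of the 8 tested genes of the hypoxic list below with these lowest and highest samples in both genotypes. Of the 9 regulators, 0 had them. The share of all tested units with these lowest and highest samples was not determined. For TIR1, Δset2 1 (25.6 CPM) and Δset2 3 (26.7 CPM) were nearly equal. CYC7, a hypoxic cytochrome c gene with an SD of 0.63, had 26.8, 17.9, and 22.5 CPM in Δset2 and 12.7, 36.9, and 13.5 CPM in WT, so that its highest sample was WT 2. AAC3, a hypoxic gene for a mitochondrial ADP/ATP carrier, had its highest level in Δset2 2 (14.96, 19.93, and 14.26 CPM in Δset2 and 14.85, 11.80, and 14.47 CPM in WT). Both were named after their values were seen. Patterns were compared by the root mean square distance between levels on this scale, each centred on its mean over the 6 samples. TIR1 lay closer to DAN1 (0.31) and ANB1 (0.33) than to AUS1 (0.75), and AUS1 lay closest to TIR4 (0.12) among the 8 genes. Outside the 8, YFR052C-A (0.28) lay nearer to TIR1 than DAN1 did. HEM13 (0.10), a gene of the hypoxic list, lay nearer to AUS1 than TIR4 did. The distance includes any difference between the genotypes.

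**Figure D3:**
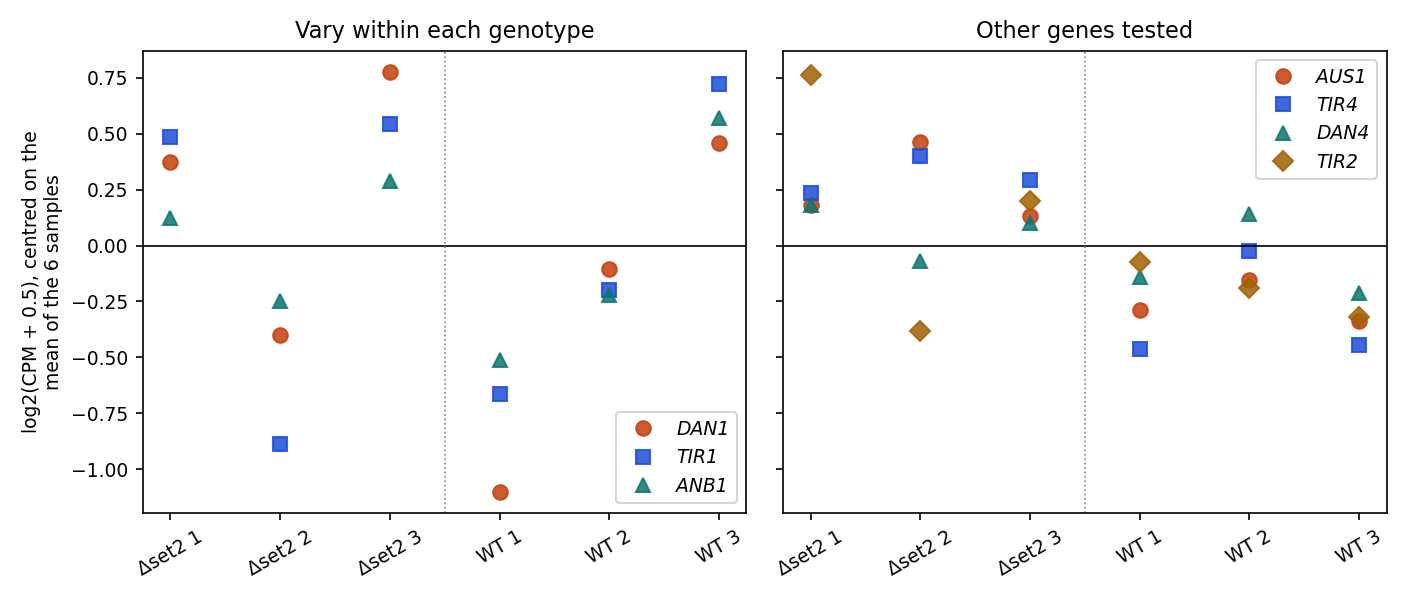
Level on the log2(CPM + 0.5) scale, centred on the mean of the 6 samples (vertical axis), for each sample (horizontal axis, with a dotted line between Δset2 on the left and WT on the right). DAN1, TIR1, and ANB1 (left) are low in Δset2 2 and WT 1 and high in Δset2 3 and WT 3. AUS1 and TIR4 (right) are above 0 in each Δset2 sample and below 0 in each WT sample, unlike DAN4 and TIR2.

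The same test was examined for other genes of anaerobic wall remodelling and sterol uptake, grouped by role. Of 38 such genes 33 could be tested, and 2 passed both thresholds by edgeR and by DESeq2. By edgeR these were ARE1 and PDR15, both higher in Δset2, compared with 3.57% of all tested units that passed. A further 2, HEM13 and SED1, were higher at an adjusted P value below 0.05 in edgeR but by less than 1.5-fold. The 4 together compare with 4.48% of all tested units that were higher at that level. The median log2 fold change of the 33 was 0.14, compared with 0.57 for the 6 genes above, and the lists were chosen with earlier results of these data known. The medians were not matched for level. Of the 6, TIR2, TIR4, and DAN1 had the largest log2 fold changes. In mean CPM they lay above only 2.48%, 13.9%, and 10.0% of tested units.

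All 9 regulators were tested, with a median log2 fold change of 0.05, and 0 had an adjusted P value below 0.05 in edgeR. At an unadjusted P value below 0.05 in edgeR, 2 were higher in Δset2, compared with 12.8% of all tested units. ECM22, the paralog of UPC2, had the smallest P value (41.3 ± 2.45 CPM in Δset2 and 32.3 ± 2.17 CPM in WT, SD, n = 3 each, log2 fold change 0.36, adjusted P = 0.069 in edgeR). SUT1, a regulator of sterol uptake, had a log2 fold change of 0.34 (adjusted P = 0.13) and MOT3, one of the repressors, -0.29 (adjusted P = 0.29, both from edgeR). The activator gene UPC2, named for its role after its values were seen, had 47.2, 45.2, and 49.9 CPM in Δset2 and 47.1, 46.8, and 47.9 CPM in WT. Its log2 fold change of 0.01 had an interval from -0.20 to 0.22.

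Among 10 other hypoxic genes 8 were tested, with a median log2 fold change of 0.10, and 0 passed both thresholds in edgeR. At an unadjusted P value below 0.05 in edgeR, 2 were higher in Δset2, compared with 12.8% of all tested units. HEM13, which encodes an oxygen-requiring enzyme of heme synthesis and is repressed by Rox1, had 83.6, 91.9, and 78.8 CPM in Δset2, against 63.8, 61.3, and 64.7 CPM in WT, without overlap. It was higher by 0.42 on the log2 scale (standard error 0.10, edgeR adjusted P = 0.033), with an adjusted P value between 0.021 and 0.17 over the alternatives. FRD1, a fumarate reductase gene listed as YEL047C, had a log2 fold change of 0.36 (adjusted P = 0.051), and HMG2, an HMG-CoA reductase gene, had -0.18 (adjusted P = 0.28, both from edgeR). COX5B and FET4 had 0 countable placements and 0 reads.

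Among 8 wall mannoprotein genes of aerobic cells or related to the TIR genes, 6 were tested. All 6 had positive log2 fold changes (median 0.41), and 0 passed both thresholds in edgeR. At an unadjusted P value below 0.05, 3 were higher in Δset2 (edgeR), compared with 12.8% of all tested units. In 5 of the 6 the Δset2 samples all lay above the WT samples, as they did in 14.1% of all tested units. SED1, a major glycoprotein of the wall in stationary phase, was higher by a log2 fold change of 0.50 (1794 ± 239 CPM in Δset2 and 1270.0 ± 75.0 CPM in WT, SD, n = 3 each, adjusted P = 0.043 from edgeR). Its adjusted P value lay between 0.0038 and 0.17 over the alternatives and was above 0.05 in 5 of 13, with the replicate block or without Δset2 1, Δset2 3, WT 1, or WT 3. CWP1 had a log2 fold change of 0.54 (adjusted P = 0.052) and CWP2 one of 0.33 (adjusted P = 0.11, both from edgeR). These aerobic wall genes thus did not lie on the other side of 0 from the TIR genes. Of their placements, 186 of 924 were countable in CWP1 and 313 of 612 in CWP2. DAN3, listed as PAU24, had too few reads, and TIP1 had 0 countable placements.

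Among the 6 other transporters of the PDR type, 5 were tested. Of these, 1 passed both thresholds in edgeR, compared with 3.57% of all tested units. PDR15, a drug pump gene, had 101, 94.5, and 101 CPM in Δset2, against 38.1, 40.5, and 32.6 CPM in WT, which gives 1.42 on the log2 scale (standard error 0.11, edgeR adjusted P = 7.7e-05). The other 4, PDR5, PDR10, PDR12, and SNQ2, had log2 fold changes between 0.10 and 0.29, and PDR18 had 0 reads in each sample although 591 placements were countable, which allows up to 0.598 CPM in the smallest library.

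Among the 5 genes of steryl ester synthesis and breakdown, ARE1 passed both thresholds in edgeR, higher in Δset2, and the other 4 did not. Of all tested units, 3.57% passed both. ARE1 encodes an acyltransferase that esterifies sterols and is used more in cells low in heme or oxygen, whereas its paralog ARE2 provides most of this activity in air. ARE1 had 40.7, 42.6, and 38.6 CPM in Δset2, against 26.0, 19.9, and 24.6 CPM in WT, which gives 0.78 on the log2 scale (standard error 0.12, edgeR adjusted P = 0.0052). ARE2 had 236 ± 28.6 CPM in Δset2 and 238 ± 10.0 CPM in WT (SD, n = 3 each), with an interval of the log2 fold change from -0.26 to 0.22.

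**Figure D4:**
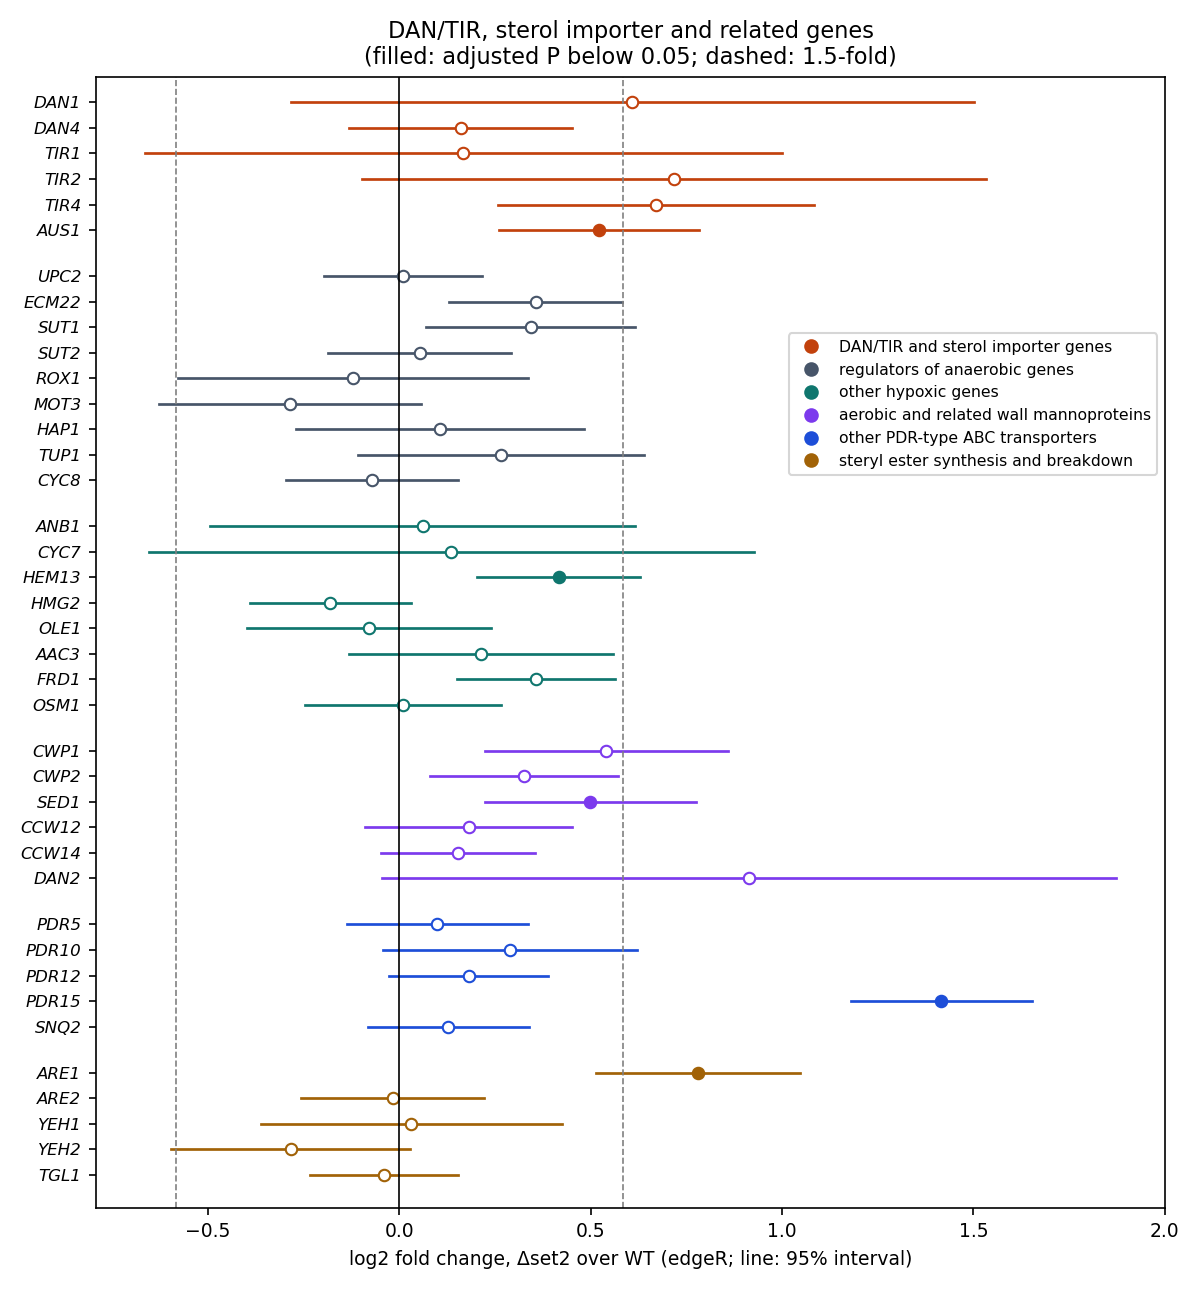
Log2 fold change, Δset2 over WT (horizontal axis), of each tested gene of the 6 lists, with 95% intervals from edgeR as lines. Filled points have an adjusted P value below 0.05, and dashed lines mark a fold change of 1.5. The 6 DAN/TIR and importer genes are all right of 0 with AUS1 filled (0.52), and the furthest right of the filled points are PDR15 (1.42) and ARE1 (0.78).

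Apart from TIR1, which stands alone on chromosome V, the 8 genes lie near each other. TIR4, TIR2, and AUS1 are consecutive coding units on chromosome XV, with gaps of 396 and 1584 nt, and DAN1 and DAN4 are consecutive on chromosome X, 2451 nt apart and 36.0 and 28.2 kb from the end of the chromosome. On chromosome IX, TIR3 and PDR11 are parted by the single unit YIL012W. The nearest coding units outside the group were 9, of which 5 were tested and 0 passed both thresholds in edgeR or DESeq2. At an unadjusted P value below 0.05 in edgeR, YJR149W was higher in Δset2 and YER010C was lower. Of all tested units, 12.8% were higher at that level, and the share that were lower was not determined. YJR149W, which lies 135 nt from DAN1, had 22.2, 24.3, and 26.3 CPM in Δset2, against 17.2, 16.6, and 17.6 CPM in WT, without overlap, which gives 0.51 on the log2 scale (standard error 0.11, edgeR adjusted P = 0.027). For YJR149W the adjusted P value lay between 0.022 and 0.15 over the alternatives, above 0.05 in 5 of 13. The proteasome gene PRE1 and YER010C beside TIR1, DOT5 beside TIR3, and MNT3 beside PDR11 had log2 fold changes between -0.31 and 0.02, and none had an adjusted P value below 0.15 (edgeR). The coding unit nearest to AUS1 on its other side, YOR011W-A, had at most 3 reads in any sample.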

How the data were processed

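The authors mapped the reads to sacCer3 with TopHat2 2.1.0 (submitters' processing notes), removed multiply mapped and low-quality alignments, and deposited read counts per transcriptional unit. They counted with summarizeOverlaps without regard to strand and discarded reads on more than 1 unit. FPKM values, a mean normalized signal, log2 fold changes with standard errors, a test score, and p-values from their DESeq2 comparison of SET2 KO with WT were also deposited by the authors and were not used here.

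Counts were tested with edgeR 4.0.16 (R 4.3.3, limma 3.58.1; TMM, filterByExpr, glmQLFit, and glmQLFTest), with genotype alone in the design and Benjamini-Hochberg adjustment over all 5317 tested units. Standard errors and intervals were derived from the F statistic and its degrees of freedom. DESeq2 1.42.0, other normalizations, filters, a replicate block, protein-coding units alone, and each sample left out served as 13 alternatives. Simulated counts with known changes served to check the fits. For single genes, exact permutation of 3 against 3 samples cannot go below P = 0.1. Of 6007 coding units with a RefSeq counterpart in R64, 6005 spanned its coding sequence, so that coordinates of sacCer3 and R64 were used together.

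The genes and lists were chosen with earlier results of these data known. Named were the 8 genes, SET2, list genes past both thresholds or otherwise up to 3 with the smallest P values, the nearest coding units, and for each tested gene the 2 units with the closest pattern. Python 3.11.15, pandas 2.3.3, and Biopython 1.88 were used for sequences and levels. In addition, 0 further per-sample columns were left aside.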

Additional observations from a re-analysis of the deposited data

How the results depend on the processing

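Of the 8 genes, 0 passed both thresholds in 12 of 13 alternatives. The exception was leaving out WT 2, where TIR4 passed, so that the number ranged from 0 to 1 with single samples left out. AUS1 kept its direction in all 13, with log2 fold changes between 0.42 and 0.59. It kept an adjusted P value below 0.05 in 7 and lost it in 6, each with a replicate block or a sample left out, and HEM13 did so in the same numbers. PDR15 and ARE1 stayed past the adjusted P threshold in all 13. DAN1, DAN4, and TIR2 kept their direction and passed in none. The log2 fold change of TIR1 reversed without Δset2 3 (-0.07) and without WT 1 (-0.10), and lay between -0.10 and 0.69 over the alternatives.

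Over all units, 190 passed both thresholds, against 75 with the replicate block and between 80 and 373 with single samples left out, the largest number without WT 2. For the related genes the number was 2, and between 2 and 5 with single samples left out. Samples with the same replicate number deviated from their group means in opposite directions (r = -0.34, -0.38, and -0.14 for numbers 1, 2, and 3, across units). Pairs with different numbers had r between -0.12 and 0.35. Deviations within a group sum to 0, so these values depend on each other and do not settle whether the numbers pair the samples. Calls lost under the block, that of AUS1 (log2 fold change 0.53, adjusted P = 0.10 from edgeR) included, therefore remain a limit. Without a filter, PDR11 and TIR3 had log2 fold changes of 0.50 and 0.49 with standard errors of 0.67 and 1.39. The depth of TIR2, TIR3, and PDR11 is limited by their countable length.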

Other observations

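For each tested gene, the 2 units outside the group with the most similar pattern over the 6 samples were found by the root mean square distance of centred log2(CPM + 0.5) levels, as a description over 6 samples that share their libraries. For AUS1 these were MDM31 (0.06), with 19.8, 21.5, and 17.4 CPM in Δset2, against 13.0, 14.0, and 13.0 CPM in WT, and ADH4 (0.06), an alcohol dehydrogenase gene. For TIR4 they were DCI1 (0.07) and SUT228 (0.08), and for DAN4 they were SNX41 (0.03) and IGO1 (0.03). TIR2 had PHO23 (0.14) and ECL1 (0.14) as its nearest units.

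The nearest units of DAN1 and TIR1 lay farther off, at 0.32 and 0.28, compared with 0.62 for a pattern with the same level in every sample. YFR052C-A was among the nearest units of both, with 3.92, 1.40, and 4.64 CPM in Δset2, against 1.71, 2.06, and 2.83 CPM in WT.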
